A study of Mus musculus with 4 samples.

Results

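Hebp1 and 6 other genes of chromosome 6 (Apold1, Fam234b, Emp1, Gucy2c, Eps8 and Dera) were followed through the leukocytes of skin wounds, as 7 of the 31053 genes counted. They were chosen by their measured levels in these libraries: each starts within 5 Mb of Hebp1 and had a ratio of at least 2-fold between the genotypes on both days in some myeloid cells. The genotype values below are therefore a description of what chose the genes, and no support is drawn from them. Of the 112 counted genes in that window, 105 are not members.

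Excisional wounds of 3 mm were made in mice labelled C57BL6/J, and live CD45+ leukocytes were sorted from them and read by droplet sequencing of transcript 3′ ends. There were 4 libraries, 1 for each of Angptl4+/+ and Angptl4-/- wounds at 1 and at 5 days post wounding (dpw). The study's methods describe male mice, give an age of 8 weeks for the wild type, and state that the wild type came from a commercial breeder and the knockout, which lacks the gene in the whole body, from a mutant mouse repository. The number of mice behind each library is not given in the sources used here, so genotype, source of the mice and library cannot be told apart. With 1 library per condition there was no replicate and no test was made. Every interval below covers counting error only, for molecules counted in single libraries.

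Passing cells numbered 5346 and 4945 in Angptl4+/+ against 4798 and 4738 in Angptl4-/- wounds at 1 and 5 dpw, out of 20069 barcodes, and the libraries held between 26981596 and 32962595 counted molecules (unique molecular identifiers, UMIs). Angptl4 itself had 47 and 78 UMIs in Angptl4+/+ and 0 in both Angptl4-/- libraries. Between 89.8% and 93.8% of cells per library had a UMI of the leukocyte marker Ptprc. The Angptl4-/- library at 5 dpw stood out for red cell markers (Hbb-bs, Hba-a1 and Alas2), with 11560 UMIs or 430 CPM. It also stood out for mast cell markers (Cpa3, Mcpt4, Cma1 and Tpsb2), with 1910 UMIs or 71.0 CPM. In the other libraries these lists stood at 0.670 to 2.54 and 0.122 to 2.71 CPM. Pairs of libraries shared between 5 and 15 cell barcodes. Clustering without the genes of the window gave 12 clusters, named from marker lists as neutrophil-like (5 clusters), macrophage-like (2), NK cell/T cell-like (2), and monocyte-like, dendritic cell-like and B cell-like (1 each). The B cell-like class had between 2 and 27 cells per library and is left out. Levels are given as UMIs of a gene per 1000000 UMIs of the class (CPM), and because only transcript ends were counted, levels are compared between samples and classes for a gene, not between genes.

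The 7 genes share a neighbourhood but not a function. Hebp1 encodes a heme-binding protein whose N-terminal peptide F2L is a ligand of formyl peptide receptors of leukocytes. Emp1 encodes a small membrane protein of the PMP22 family with 4 membrane passes, Apold1 an early-response protein best known in endothelium, and Fam234b a little-studied membrane protein. Gucy2c encodes guanylyl cyclase C, the intestinal receptor of guanylin and uroguanylin. Eps8 encodes a protein that caps and bundles actin filaments and is a substrate of the epidermal growth factor receptor, and Dera encodes deoxyribose-phosphate aldolase, which splits deoxyribose phosphate in nucleoside breakdown.

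On the GRCm38 build, Hebp1 (ENSMUSG00000042770) spans chr6:135137522-135198022 on the minus strand. Its protein-coding transcript Hebp1-201 starts at 135168215, and a longer processed transcript reaches 135198022. There it overlaps by 46 bases the first exon of Fam234b (ENSMUSG00000030207, chr6:135197977-135244955, plus strand). Apold1 (ENSMUSG00000090698, chr6:134981718-134986836, plus strand) starts 0.216 Mb to the left of the Hebp1 start. Emp1 (ENSMUSG00000030208, chr6:135362545-135383173, plus strand) starts 0.165 Mb to its right. Further right follow Gucy2c (ENSMUSG00000042638, chr6:136697284-136781765, minus strand) at 1.584 Mb, Eps8 (ENSMUSG00000015766, chr6:137477245-137654876, minus strand) at 2.457 Mb and Dera (ENSMUSG00000030225, chr6:137754546-137857340, plus strand) at 2.557 Mb. How the authors' counting treated strand is not given in the sources used here, so UMIs of overlapping genes on opposite strands may not be fully separated. Besides the overlap of Hebp1 with Fam234b, Gsg1 overlaps Fam234b by 7630 bases and the antisense gene Gm19434 overlaps Hebp1 by 6481 bases.

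Promoter windows of RefSeq (GRCm38.p6) were at hand for 4 of the 7 genes, and those of Gucy2c, Eps8 and Dera were not used here. The windows are described because they were at hand. Other genes, Ddx47 and Gsg1 among them, start between these genes, which did not share one pattern of levels, as given below. Only bases outside annotated exons are printed, 5′ to 3′ in the direction of the gene, with the matches in capitals. For Hebp1 these are the 250 bases before the start of Hebp1-201 (chr6:135168216-135168465, minus strand), with an E-box (CACGTG) 58 bases before the start. For Emp1 they are 196 bases (chr6:135362708-135362903, plus strand), with an AP-1 match (TGANTCA) 145 bases and a STAT match (TTCNNNGAA) 120 bases before the start of that window's transcript. For Fam234b they are 139 bases (chr6:135197737-135197875, plus strand), with no match. The Hebp1 and Emp1 stretches lie inside the annotated spans of these genes given above, because other transcripts of each start further upstream. Their matches are therefore not upstream of the whole gene.
Hebp1: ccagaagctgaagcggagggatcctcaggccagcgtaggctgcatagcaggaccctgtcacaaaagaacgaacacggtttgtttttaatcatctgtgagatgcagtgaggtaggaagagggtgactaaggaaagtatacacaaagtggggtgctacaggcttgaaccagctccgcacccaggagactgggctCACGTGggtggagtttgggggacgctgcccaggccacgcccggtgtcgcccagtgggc
Emp1: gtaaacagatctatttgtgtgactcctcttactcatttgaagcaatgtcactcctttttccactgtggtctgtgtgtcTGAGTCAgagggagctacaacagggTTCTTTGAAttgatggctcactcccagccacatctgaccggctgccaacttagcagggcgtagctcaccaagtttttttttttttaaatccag
Fam234b: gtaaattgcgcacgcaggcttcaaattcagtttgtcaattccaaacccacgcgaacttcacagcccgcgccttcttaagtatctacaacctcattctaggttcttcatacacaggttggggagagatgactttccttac

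The motifs searched on both strands were AP-1 TGANTCA, CRE TGACGTCA, STAT TTCNNNGAA, PU.1 GAGGAAGT and E-box CACGTG, and, by name only, the interferon element ISRE, the PPAR element PPRE and the Maf element MARE. Over the 32851 RefSeq promoter windows of the table, 6.02% held the E-box letters, 6.75% the AP-1 letters and 7.02% the STAT letters. The shares for the motifs without a match in the printed sequences were 0.0335% for PPRE, 0.323% for MARE, 1.55% for CRE, 2.44% for PU.1 and 2.98% for ISRE. Emp1 and Fam234b each had a second RefSeq window, which is not printed. That of Emp1 (chr6:135367243-135367492, plus strand) lay inside the annotated span of the gene but wholly outside exons, and held no match. That of Fam234b had 26 bases outside exons, also without a match. Past the printed bases, the Emp1 window shown held a second AP-1 match 25 bases before the start, which overlapped a STAT match at 22 bases. The Apold1 window lay inside an annotated exon and held 1 STAT match. A match is a match of letters and says nothing of binding.

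In the wound leukocytes, Hebp1 was higher in Angptl4-/- than in Angptl4+/+ libraries in every class with enough UMIs, though from few cells in the NK cell/T cell-like class. Emp1 followed in monocyte-like and neutrophil-like cells. Apold1 was higher in macrophage-like and Fam234b in neutrophil-like cells. Eps8 was lower in monocyte-like, macrophage-like and neutrophil-like cells of Angptl4-/- wounds, Gucy2c was lower in neutrophil-like cells, and Dera was somewhat higher in most classes. Past 2-fold in one direction on both days, with at least 20 UMIs over the 4 libraries, were 2 of 7 members in monocyte-like plus macrophage-like cells, both higher in Angptl4-/- wounds, beside 0.953% of all genes with as many UMIs (0.371% higher and 0.582% lower). In neutrophil-like cells 6 of 6 members passed, 4 higher and 2 lower, beside 1.56% of all genes (0.567% higher and 0.991% lower). Dendritic cell-like cells had 1 of 6, higher, beside 1.02% (0.492% and 0.531%), and NK cell/T cell-like cells had 3 of 5, all higher, beside 0.883% (0.672% and 0.211%). Taken apart, monocyte-like cells had 3 of 5, 2 higher and 1 lower, beside 0.813% (0.396% and 0.417%), and macrophage-like cells 2 of 7, both higher, beside 1.08% (0.406% and 0.673%). Since this contrast chose the members, nothing is read from these counts. Just inside the 2-fold limit were Emp1 in NK cell/T cell-like and Dera in neutrophil-like cells, both at 2.27-fold on the day with the smaller ratio, and just outside were Emp1 in dendritic cell-like cells at 1.72-fold and Gucy2c, at 1.70-fold, in monocyte-like plus macrophage-like cells.

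**Figure D1:**
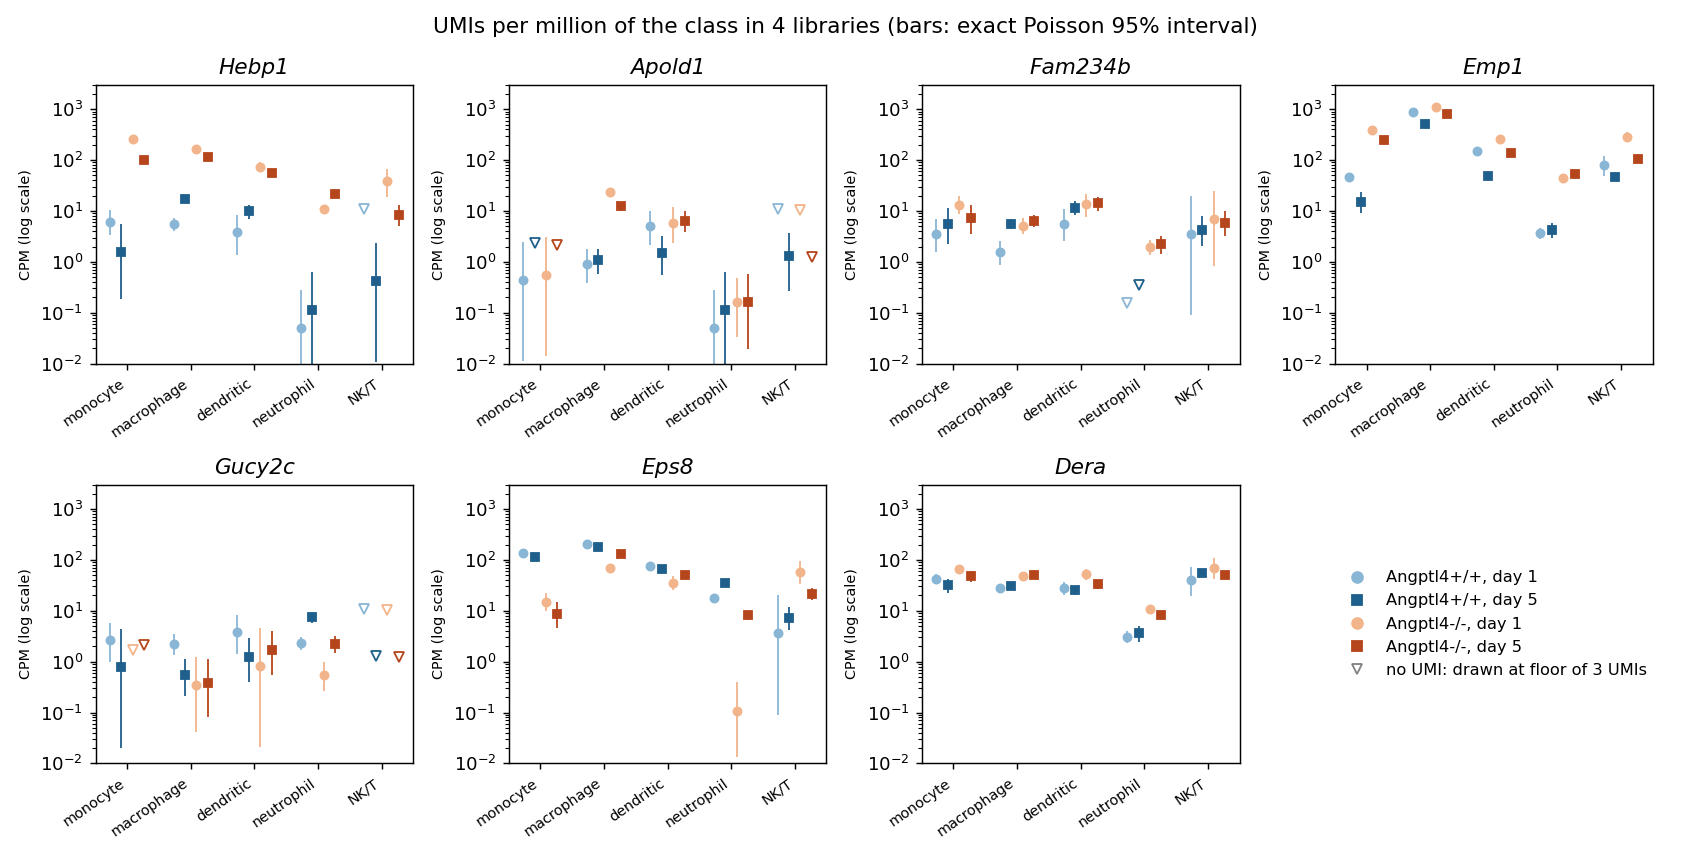
Level of each of the 7 genes (CPM, log axis) in 5 cell classes, with 1 point per library and exact Poisson 95% intervals, and open triangles at the floor of 3 UMIs where a library had none. Within each day, the Angptl4-/- points of Hebp1 lie above the Angptl4+/+ points in every class, those of Emp1 lie far above in monocyte-like and neutrophil-like cells and near the Angptl4+/+ points in macrophage-like cells, and those of Eps8 lie below in all classes but the NK cell/T cell-like.

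Hebp1, the heme-binding protein gene, had 14 and 2 UMIs in Angptl4+/+ against 460 and 142 in Angptl4-/- monocyte-like cells at 1 and 5 dpw. In macrophage-like cells it had 49 and 229 UMIs against 973 and 895. In dendritic cell-like cells the UMIs were 6 and 40 against 87 and 166. Both Angptl4-/- libraries stood above both Angptl4+/+ libraries in each of these classes, and 90.5% (84.0 to 94.98) of Angptl4-/- monocyte-like cells had a UMI at 1 dpw. The log2 ratio of Angptl4-/- to Angptl4+/+ was 5.36 (4.60 to 6.25) at 1 dpw and 6.03 (4.15 to 9.09) at 5 dpw in monocyte-like cells. It was 4.94 (4.52 to 5.38) and 2.72 (2.51 to 2.94) in macrophage-like, and 4.27 (3.09 to 5.76) and 2.50 (1.997 to 3.04) in dendritic cell-like cells.

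In neutrophil-like cells Hebp1 had 1 UMI in each Angptl4+/+ library, in 3890 and 2708 cells, and 198 and 268 UMIs in the Angptl4-/- libraries, in 3701 and 3509 cells. These were 0.0508 and 0.115 CPM against 10.8 and 21.8 CPM, log2 ratios of 7.73 (5.24 to 13.04) and 7.56 (5.07 to 12.87). The share of neutrophil-like cells with a UMI was 4.84% (4.17 to 5.58) and 6.47% (5.68 to 7.33) in Angptl4-/- wounds. The UMIs were spread over many cells, since the 5 cells with the most held 6.06% and 7.09% of them. After every cell was thinned to 1000 UMIs, which leaves out shallower cells, the shares were 0% and 0.0386% in Angptl4+/+ against 1.22% and 2.25% in Angptl4-/- neutrophil-like cells. The median UMIs per neutrophil-like cell were close between the genotypes, at 4682.5 and 3216.5 in Angptl4+/+ against 4636 and 3392 in Angptl4-/- wounds.

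Free RNA of other cells can reach a droplet, so the level of each gene in neutrophil-like cells was set beside that of the 8 listed macrophage markers (Adgre1, C1qa, C1qb, Mrc1, Ms4a7, Apoe, Arg1 and Fn1). In neutrophil-like cells the median marker stood at 0.171% to 0.546% of its macrophage-like level over the 4 libraries, and the highest, Adgre1, at 9.37% to 11.99%. Hebp1 stood there at 6.46% and 18.8% of its macrophage-like level in Angptl4-/- and at 0.931% and 0.658% in Angptl4+/+ wounds. The summed level of the 8 markers in neutrophil-like cells, all of which had UMIs, was 48.8 and 234 CPM in Angptl4+/+ against 40.3 and 176 CPM in Angptl4-/- wounds. In monocyte-like cells, which lie closest to macrophage-like cells, the 8 markers summed to 2580 and 3383 CPM in Angptl4+/+ against 3663 and 3157 CPM in Angptl4-/- wounds, so the genotypes ranked differently on the 2 days, and the macrophage-like sums were 11212 to 17606 CPM. With neutrophil-like cells that held 2 or more of 7 of these markers left out (31 and 131 Angptl4+/+ and 15 and 55 Angptl4-/- cells), an alternative chosen after seeing the data, 6 members were still past 2-fold and the log2 ratio of Hebp1 was 7.72 and 7.47. The part of free RNA in the neutrophil-like values was not tested.

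NK cell/T cell-like cells had 0 and 1 Hebp1 UMIs in Angptl4+/+ against 11 and 20 in Angptl4-/- wounds, in 3 and 7 cells. The 3 cells of 1 dpw lay in cluster 9, which had 0 Hebp1 UMIs in both genotypes at 5 dpw. The 7 cells of 5 dpw lay in cluster 10, which had 0 cells with Hebp1 at 1 dpw, among 10 Angptl4+/+ and 13 Angptl4-/- cells. So neither cluster of the class showed the difference on both days, but cluster 10 had too few cells at 1 dpw to show one. At 1 dpw Hebp1 was higher by at least 3.53-fold, the floor being 3 UMIs, and at 5 dpw the log2 ratio was 4.29 (1.65 to 9.66). There were 36 cells of this class in each library at 1 dpw, and the macrophage markers were high in them. Their summed level was 1410 and 313 CPM in Angptl4+/+ against 1551 and 422 CPM in Angptl4-/- wounds, and 7 of 8 markers, without C1qa, had UMIs in the Angptl4-/- library at 1 dpw. The highest marker stood at 49.9% of its macrophage-like level in that library. The part of these markers' RNA in the Hebp1 values of this class was not tested.

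By day, a contrast that the choice of genes did not use within a genotype, Hebp1 went opposite ways in macrophage-like cells. Angptl4+/+ wounds went from 5.45 (4.03 to 7.21) at 1 dpw to 17.5 (15.3 to 19.95) CPM at 5 dpw, for a log2 ratio of the days of 1.68 (1.23 to 2.16). Angptl4-/- wounds went from 167 (157 to 178) to 116 (108 to 124) CPM, and their log2 ratio was -0.53 (-0.66 to -0.40). In Angptl4-/- neutrophil-like cells it was higher at 5 dpw by a log2 ratio of 1.01 (0.74 to 1.29), and in Angptl4-/- monocyte-like cells lower, with -1.32 (-1.60 to -1.04). Within libraries, the macrophage-like level exceeded the neutrophil-like level in both genotypes. The log2 ratios were 6.75 (4.20 to 12.08) and 7.25 (4.76 to 12.56) in Angptl4+/+ wounds, each from 1 neutrophil-like UMI. They were 3.95 (3.73 to 4.18) and 2.41 (2.21 to 2.61) in Angptl4-/- wounds. Set between the genotypes, these ratios and those of the days hold the contrast that chose the gene.

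Emp1, the PMP22 family gene, was an abundant macrophage-like transcript in both genotypes. It had 7958 and 6660 UMIs in Angptl4+/+ against 6501 and 6182 in Angptl4-/- macrophage-like cells, or 886 and 509.8 CPM against 1117 and 799.6 CPM. The log2 ratio of the genotypes in this class was 0.34 (0.29 to 0.38) at 1 dpw and 0.65 (0.60 to 0.70) at 5 dpw, and the Angptl4+/+ level at 1 dpw lay above the Angptl4-/- level at 5 dpw. In monocyte-like cells, by contrast, it had 103 and 19 UMIs against 688 and 344, or 45.7 and 14.9 CPM against 383 and 248 CPM. There both Angptl4-/- libraries stood well above both Angptl4+/+ libraries, with log2 ratios of 3.07 (2.77 to 3.38) and 4.06 (3.39 to 4.81). The macrophage-like level exceeded the monocyte-like level by log2 ratios of 4.28 and 5.10 in Angptl4+/+ but 1.55 and 1.69 in Angptl4-/- wounds. Compared between the genotypes, these ratios hold the contrast that chose the gene.

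In neutrophil-like cells Emp1 had 72 and 36 UMIs in Angptl4+/+ against 812 and 670 in Angptl4-/- wounds. The levels were 3.66 and 4.15 CPM against 44.3 and 54.5 CPM, log2 ratios of 3.60 (3.25 to 3.97) and 3.71 (3.23 to 4.24). The share of cells with a UMI was 1.75% and 1.29% in Angptl4+/+ against 7.89% and 5.59% in Angptl4-/- wounds, and after thinning 0.415%, 0.309%, 3.56% and 3.104% in the same order. Relative to macrophage-like cells of the same library, neutrophil-like cells had 0.413% and 0.815% of the Emp1 level in Angptl4+/+ against 3.96% and 6.81% in Angptl4-/- wounds.

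The neutrophil-like clusters did not carry Emp1 alike. In cluster 0, led by Acot1 and Csf1, Emp1 had 20 and 16 UMIs in Angptl4+/+ against 623 and 573 in Angptl4-/- wounds, log2 ratios of 5.08 (4.44 to 5.80) and 4.59 (3.88 to 5.41). In cluster 6, led by the inflammatory genes Csf3, Serpinb2 and Il1a, it had 2 and 0 against 41 and 45 UMIs, a log2 ratio of 4.28 (2.34 to 7.37) at 1 dpw and of at least 3.60 at 5 dpw against the floor of 3 UMIs. These 2 clusters held most of the Angptl4-/- UMIs. They were also less clearly neutrophil-like than the rest. Of the listed neutrophil markers, 7 in cluster 0 and 5 in cluster 6 stood above the mean of all clusters, against 8 in clusters 1, 2 and 5. In cluster 2, led by the granule genes Ceacam10, Ngp and Pglyrp1, Emp1 had 19 and 8 UMIs in Angptl4+/+ against 19 and 8 in Angptl4-/- wounds, log2 ratios of 0.06 (-0.93 to 1.06) and -0.42 (-2.03 to 1.19). The summed level of the 8 macrophage markers was 53.6 and 227 CPM in Angptl4+/+ against 57.9 and 195 CPM in Angptl4-/- cells of cluster 0, and 59.9, 343, 37.0 and 277 CPM in cluster 2, so it was lower in cluster 0 than in cluster 2 in 3 libraries and higher in the Angptl4-/- library at 1 dpw. The part of macrophage RNA in the Emp1 values was not tested. Cluster 0 made up 1105 of the 3890 and 955 of the 2708 Angptl4+/+ and 1078 of the 3701 and 1299 of the 3509 Angptl4-/- neutrophil-like cells.

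**Figure D2:**
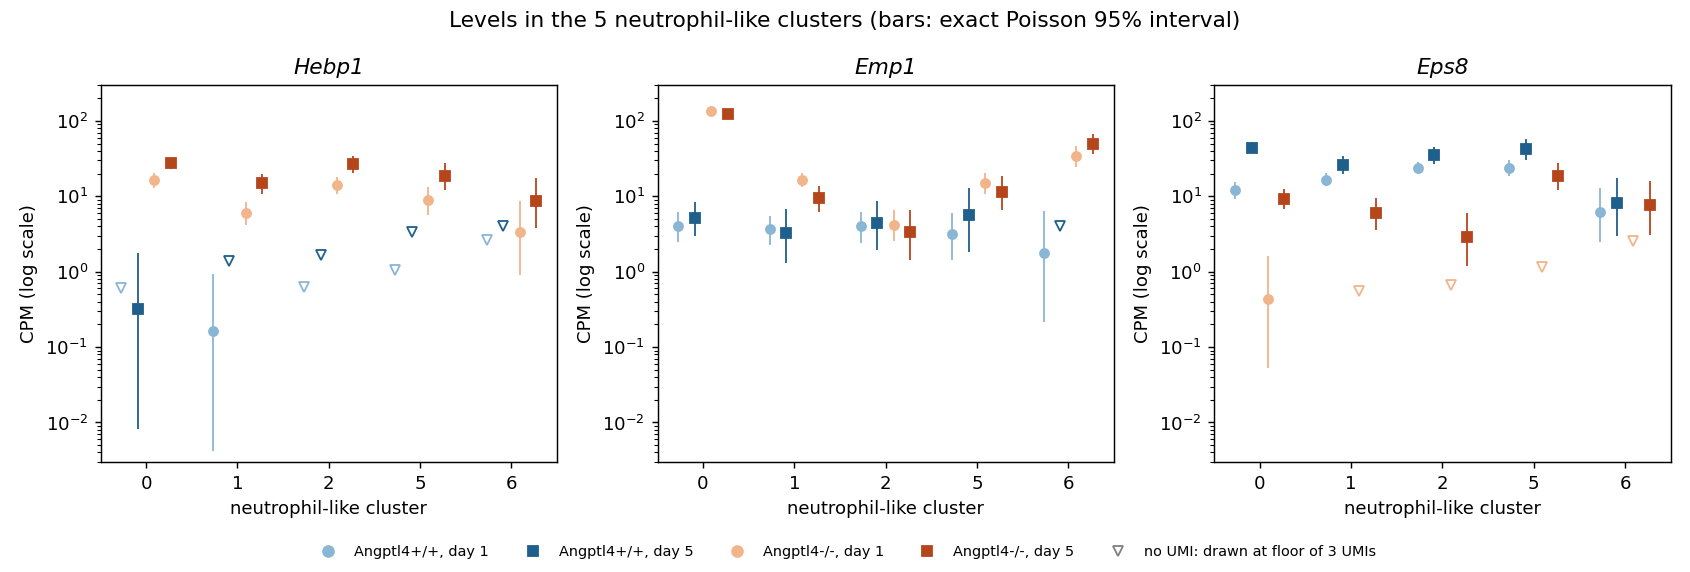
Levels of Hebp1, Emp1 and Eps8 (CPM, log axis) in the 5 neutrophil-like clusters, with 1 point per library, exact Poisson 95% intervals, and open triangles at the floor of 3 UMIs where a library had none. Within each day Hebp1 lies higher in Angptl4-/- cells of every cluster, and Eps8 lies lower in those of every cluster at 1 dpw, whereas Emp1 differs most in clusters 0 and 6 and overlaps in cluster 2.

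Dendritic cell-like cells had 245 and 195 Emp1 UMIs in Angptl4+/+ against 316 and 410 in Angptl4-/- wounds, log2 ratios of 0.78 (0.53 to 1.03) and 1.52 (1.27 to 1.78). NK cell/T cell-like cells had 22 and 109 against 83 and 253, log2 ratios of 1.86 (1.17 to 2.61) and 1.18 (0.85 to 1.52). Between days Emp1 was lower at 5 than at 1 dpw in both genotypes in macrophage-like cells, with a log2 ratio of -0.80 (-0.84 to -0.75) for Angptl4+/+ and -0.48 (-0.53 to -0.43) for Angptl4-/- wounds. The same direction held in monocyte-like cells, with -1.62 and -0.62, and in dendritic cell-like cells, with -1.69 and -0.94.

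Fam234b, the head-to-head neighbour of Hebp1, had 0 UMIs in both Angptl4+/+ libraries of neutrophil-like cells and 36 and 27 in the Angptl4-/- libraries. With 3 UMIs as the floor it was at least 12.9-fold and at least 6.35-fold higher. Taking 3 counts as the limit that a count of 0 allows, up to 0.0771% of Angptl4+/+ cells on day 1 and up to 0.111% on day 5 could have had a UMI (exact 95% upper ends 0.0948% and 0.136%), which limits cells with a UMI and not cells with the transcript. Of Angptl4-/- neutrophil-like cells, 0.973% (0.682 to 1.34) and 0.741% (0.485 to 1.08) had one. In macrophage-like cells the UMIs were 14 and 74 in Angptl4+/+ against 30 and 50 in Angptl4-/- wounds, in monocyte-like cells 8 and 7 against 24 and 10. In dendritic cell-like cells they were 9 and 47 against 16 and 42. In these 3 classes the Angptl4-/- library was higher at 1 dpw (log2 ratios of 1.73, 1.91 and 1.24 in that order) and close to the Angptl4+/+ library at 5 dpw (0.19, 0.40 and 0.29), and the intervals at 5 dpw all included 0, as did that of dendritic cell-like cells at 1 dpw (-0.02 to 2.60). The Angptl4+/+ macrophage-like level itself stood higher at 5 than at 1 dpw, by a log2 ratio of 1.86 (1.03 to 2.80), against 0.33 (-0.35 to 1.03) in Angptl4-/- wounds. Between the genotypes, these day ratios also hold the contrast that chose the gene. Gsg1, on the opposite strand of the same stretch, had 1 and 29 UMIs in Angptl4+/+ against 12 and 5 in Angptl4-/- macrophage-like cells. Like Fam234b it was higher in Angptl4-/- wounds at 1 dpw, by a log2 ratio of 4.21 (1.46 to 9.63), and unlike it lower at 5 dpw, with -1.78 (-3.51 to -0.39). Whether UMIs of one gene were counted for the other was not tested.

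Apold1 was seen in few cells, most of them macrophage-like. Macrophage-like cells had 8 and 14 UMIs in Angptl4+/+ against 136 and 96 in Angptl4-/- wounds, or 0.890 and 1.07 CPM against 23.4 and 12.4 CPM. Both Angptl4-/- libraries stood above both Angptl4+/+ libraries, with log2 ratios of 4.71 (3.69 to 5.96) and 3.53 (2.72 to 4.46). The UMIs came from 7 and 6 Angptl4+/+ and from 51 and 42 Angptl4-/- macrophage-like cells. Cluster 3, led by Ptges, Sdc1 and Arg1, carried most of them, with 7 and 4 UMIs against 121 and 80 and log2 ratios of 4.77 (3.68 to 6.11) and 5.21 (3.80 to 7.12). In cluster 4, led by Cbr2, Fcrls, Folr2 and C1qa, the log2 ratios were 4.43 (1.73 to 9.82), from 1 against 15 UMIs, and 1.29 (0.06 to 2.59), from 10 against 16.

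In 3 other classes Apold1 was near the limit of detection. Neutrophil-like cells had 1 and 1 UMIs against 3 and 2, monocyte-like cells 1 and 0 in each genotype, and NK cell/T cell-like cells 0 and 3 against 0 and 0. Dendritic cell-like cells had 8 and 6 against 7 and 19 UMIs, log2 ratios of 0.22 (-1.48 to 1.88) and 2.11 (0.73 to 3.73). Their levels were 5.04 and 1.48 CPM in Angptl4+/+ against 5.87 and 6.38 CPM in Angptl4-/- wounds, so the dendritic cell-like level exceeded the macrophage-like level in Angptl4+/+ wounds at 1 dpw, by a log2 ratio of 2.50 (0.89 to 4.11), from 2 cells with a UMI, and was below it in Angptl4-/- wounds, with -1.99 and -0.96. Because Apold1 is known from endothelium, the endothelial markers Cdh5, Kdr, Cldn5 and Egfl7 were summed over all cells. They stood at 10.9 and 11.0 CPM in Angptl4+/+ against 11.99 and 7.55 CPM in Angptl4-/- libraries, with Cldn5 at 0 in 3 of the 4, after a sort for CD45+ cells, which endothelial cells lack. So the sum was slightly higher in Angptl4-/- cells at 1 dpw and lower at 5 dpw, and the part of endothelial RNA in the Apold1 values was not tested. In Angptl4-/- macrophage-like cells Apold1 was lower at 5 than at 1 dpw, by a log2 ratio of -0.91 (-1.30 to -0.52).

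Gucy2c, the guanylyl cyclase C gene, was a rare transcript, with most of its UMIs in the numerous neutrophil-like cells. It had 45 and 65 UMIs in Angptl4+/+ against 10 and 27 in Angptl4-/- neutrophil-like cells, or 2.29 and 7.50 CPM against 0.546 and 2.20 CPM. Both Angptl4-/- libraries stood below both Angptl4+/+ libraries, but the Angptl4-/- level at 5 dpw and the Angptl4+/+ level at 1 dpw were within counting error of each other. Within days the log2 ratios were -2.07 (-3.22 to -1.06) and -1.77 (-2.48 to -1.10). In both genotypes it stood higher at 5 than at 1 dpw, by log2 ratios of 1.71 (1.14 to 2.30) and 2.01 (0.92 to 3.22).

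Per UMI the gene was not particular to neutrophil-like cells at 1 dpw, where Angptl4+/+ levels were 2.29 CPM in neutrophil-like, 2.23 in macrophage-like, 2.66 in monocyte-like and 3.78 in dendritic cell-like cells. The macrophage-like to neutrophil-like log2 ratio was -0.04 (-0.88 to 0.75) there and -3.81 (-5.18 to -2.68) at 5 dpw. Few neutrophil-like cells had a Gucy2c UMI, 0.925% and 1.66% in Angptl4+/+ against 0.216% and 0.712% in Angptl4-/- wounds. After thinning the shares were 0.259% and 0.695% against 0.0816% and 0.293%. In macrophage-like cells 20 and 7 UMIs stood against 2 and 3, with a log2 ratio of -2.70 (-5.84 to -0.65) at 1 dpw and -0.47 (-3.05 to 1.67) at 5 dpw, which was not distinguishable from 0 at this depth. Dendritic cell-like cells had 6 and 5 UMIs against 1 and 5, with log2 ratios of -2.17 (-7.70 to 0.87) and 0.45 (-1.67 to 2.57), neither distinguishable from 0. Monocyte-like cells had 6 and 1 UMIs against 0 and 0, and NK cell/T cell-like cells had none in any library. Cluster 6 held 11 and 19 of the Angptl4+/+ and 6 and 10 of the Angptl4-/- UMIs of neutrophil-like cells, at 9.75 and 25.8 CPM against 5.04 and 11.0 CPM. When the CPM of single cells was averaged in place of summing UMIs, the log2 ratio in neutrophil-like cells at 1 dpw was -0.94, under 2-fold.

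Eps8, the actin capping gene, was lower in Angptl4-/- myeloid cells. Monocyte-like cells had 313 and 142 UMIs in Angptl4+/+ against 27 and 12 in Angptl4-/- wounds, or 139 and 111 CPM against 15.0 and 8.66 CPM. Both Angptl4-/- libraries stood far below, with log2 ratios of -3.21 (-3.83 to -2.64) and -3.68 (-4.67 to -2.83). Macrophage-like cells had 1821 and 2316 UMIs against 410 and 1026, or 203 and 177 CPM against 70.5 and 133 CPM. The log2 ratio there was -1.52 (-1.68 to -1.37) at 1 dpw and -0.42 (-0.53 to -0.31) at 5 dpw. Dendritic cell-like cells had 120 and 264 against 42 and 152 UMIs, log2 ratios of -1.10 (-1.64 to -0.58) and -0.35 (-0.64 to -0.05).

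Neutrophil-like cells held 350 and 300 Eps8 UMIs in Angptl4+/+ but 2 and 101 in Angptl4-/- wounds. The levels were 17.8 and 34.6 CPM against 0.109 and 8.21 CPM, log2 ratios of -7.35 (-10.40 to -5.48) and -2.07 (-2.41 to -1.74). A UMI was seen in 6.50% and 8.42% of Angptl4+/+ and in 0.0540% and 2.17% of Angptl4-/- neutrophil-like cells, and after thinning in 1.56%, 3.13%, 0.0272% and 0.703%. At 1 dpw the 2 UMIs of Angptl4-/- wounds were both in cluster 0, and clusters 1, 2, 5 and 6 had none, against 101, 114, 68 and 7 UMIs in Angptl4+/+ wounds. By 5 dpw every neutrophil-like cluster of Angptl4-/- wounds had Eps8 UMIs, 43 in cluster 0, 18 in cluster 1, 7 in cluster 2, 26 in cluster 5 and 7 in cluster 6, against 137, 56, 63, 38 and 6 in Angptl4+/+ wounds. Relative to macrophage-like cells of the same library, neutrophil-like cells had 8.77% and 19.5% of the Eps8 level in Angptl4+/+ against 0.15% and 6.2% in Angptl4-/- wounds.

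Between days the genotypes differed for Eps8. In macrophage-like cells it was slightly lower at 5 than at 1 dpw in Angptl4+/+ wounds, with a log2 ratio of -0.19 (-0.28 to -0.10), and higher in Angptl4-/- wounds, with 0.91 (0.75 to 1.08). In neutrophil-like cells the ratios were 0.96 (0.73 to 1.19) and 6.23 (4.34 to 9.30). In Angptl4+/+ wounds the macrophage-like level exceeded the monocyte-like level by log2 ratios of 0.55 and 0.67, and in Angptl4-/- wounds by 2.23 and 3.94. Compared between the genotypes, these ratios of days and classes hold the contrast that chose Eps8.

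NK cell/T cell-like cells were the exception for Eps8, with 1 and 17 UMIs in Angptl4+/+ against 17 and 52 in Angptl4-/- wounds. The log2 ratios were 4.03 (1.36 to 9.42) and 1.58 (0.77 to 2.47). These UMIs lay in few cells, 1 and 7 in Angptl4+/+ against 4 and 10 in Angptl4-/- wounds, and the 5 cells with the most held 82.7% to 100% of each library's total. The macrophage markers were high in this class, as given with Hebp1. With the 2 and 14 Angptl4+/+ and 3 and 10 Angptl4-/- cells left out that held 2 or more of 7 macrophage markers, the log2 ratio of Eps8 was 1.03 at 5 dpw and could not be given at 1 dpw, and Emp1 was the 1 member still past 2-fold on both days in the class.

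Dera, the aldolase gene, was higher in Angptl4-/- wounds by smaller steps and in nearly all classes. In neutrophil-like cells it had 60 and 31 UMIs in Angptl4+/+ against 199 and 100 in Angptl4-/- wounds, or 3.05 and 3.58 CPM against 10.9 and 8.13 CPM. The log2 ratios were 1.83 (1.41 to 2.27) and 1.19 (0.59 to 1.82). In macrophage-like cells it had 255 and 407 UMIs against 275 and 394, or 28.4 and 31.2 CPM against 47.3 and 51.0 CPM, log2 ratios of 0.74 (0.48 to 0.99) and 0.71 (0.51 to 0.91). These ratios were alike on both days, and monocyte-like cells had similar ones, 0.61 (0.21 to 1.02) and 0.63 (0.04 to 1.23), from 96 and 40 against 117 and 67 UMIs. In dendritic cell-like cells the ratios were 0.91 (0.33 to 1.499) and 0.41 (-0.01 to 0.82), and those of NK cell/T cell-like cells 0.81 (-0.32 to 2.02) and -0.13 (-0.50 to 0.23), so no genotype difference was detectable there at this depth.

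The genotype ratios were then read over the 10 clusters with at least 20 cells in each library. Hebp1 had a ratio on both days in 9 of them and was higher in Angptl4-/- wounds on both days in all 9, past 2-fold in 8. Eps8 was lower on both days in 9 of the 9 clusters with both ratios, past 2-fold in 5, and Dera higher in 9 of 9, past 2-fold in 2. For Eps8 in cluster 6 at 5 dpw the log2 ratio was only -0.09 (-1.88 to 1.76), from 6 against 7 UMIs. NK cell/T cell-like cluster 9, without an Eps8 ratio at 1 dpw, went the other way at 5 dpw, with 2.16 (-0.07 to 5.39). Emp1 was higher on both days in 9 of 10 clusters, with neutrophil-like cluster 2 as the exception, and past 2-fold in 6. Fam234b was higher on both days in 7 of 7 clusters and past 2-fold in 1, Apold1 higher in 3 of 3 and past 2-fold in 2, and Gucy2c lower in 5 of 6 and past 2-fold in 2. The clusters of a library share its mice and droplets and are not replicates.

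**Figure D3:**
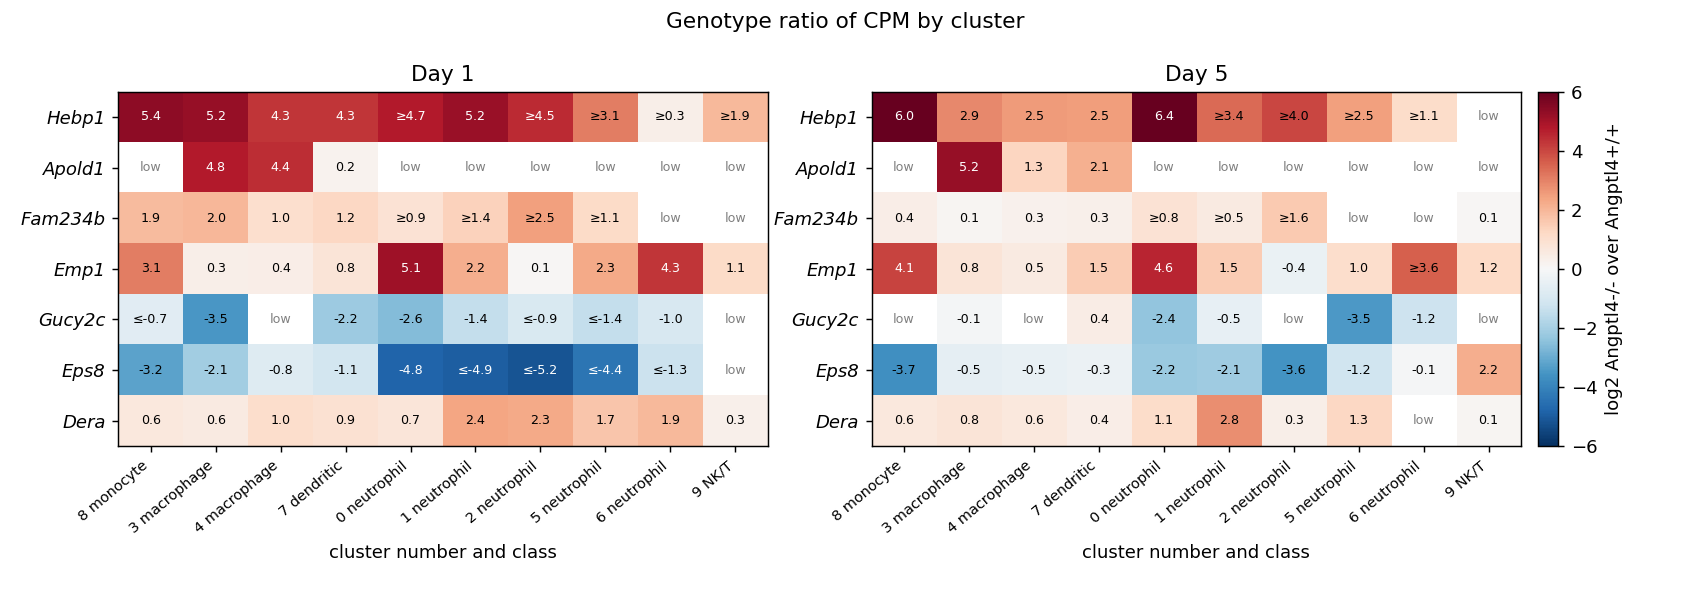
Log2 ratio of the CPM of Angptl4-/- to Angptl4+/+ wounds for the 7 genes (rows) in the clusters with enough cells (columns), at 1 dpw on the left and 5 dpw on the right, where the sign ≥ or ≤ marks a bound from the floor of 3 UMIs and "low" marks cells without a ratio. Where a ratio could be given, the Hebp1 and Dera rows are positive and the Eps8 row is negative but for the NK cell/T cell-like cluster at 5 dpw, while Emp1 goes from over 5 to near 0 between clusters.

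Other genes of the window mostly stood near no difference. In monocyte-like plus macrophage-like cells 30 of the 105 had at least 20 UMIs, with a median log2 ratio of 0.03 at 1 dpw and -0.09 at 5 dpw, against 0.02 and -0.02 over all genes. In neutrophil-like cells 27 had as many, with medians of -0.14 and 0.00 against -0.11 and -0.09 over all genes. Past 2-fold on both days was 1 of the 30, Erp27, a disulfide isomerase family gene of the endoplasmic reticulum, with 7 and 11 UMIs in Angptl4+/+ against 2 and 0 in Angptl4-/- wounds. The log2 ratio of Erp27 at 1 dpw was -1.25 (-4.55 to 1.15), not distinguishable from 0. None of the 27 passed in neutrophil-like cells, and none of 25 in dendritic cell-like cells. The members were chosen as the window genes past 2-fold in myeloid cells, so low counts among the others there follow from the choice. Nothing is read from them. In NK cell/T cell-like cells 2 of 26 passed, beside 0.883% of all genes. They were the lectin receptor gene Klra2, with 2 and 7 against 8 and 16 UMIs, and the receptor phosphatase gene Ptpro, with 1 and 6 against 8 and 20. The intervals of Klra2 included 0 on both days (-0.38 to 5.22 and -0.20 to 2.69). The macrophage markers were high in this class, as given with Hebp1, and the part of macrophage RNA in these values was not tested.

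The genes lying directly beside the members were described by name. Ddx47, an RNA helicase gene to the right of Apold1, had 233 and 442 UMIs in Angptl4+/+ against 143 and 208 in Angptl4-/- macrophage-like cells, log2 ratios of -0.08 and -0.33, and 0.06 and -0.01 in neutrophil-like cells. Strap, which lies between Eps8 and Dera and encodes a receptor-associated protein of the SMN complex, had macrophage-like log2 ratios of 0.04 and 0.26, and Ptpro, on the other side of Eps8, 0.29 and 0.45. Plbd1 and Hist4h4, on either side of Gucy2c, were both lower in Angptl4-/- neutrophil-like cells. Plbd1, a phospholipase B-like gene, had 2786 and 2114 UMIs against 1233 and 1682 there, log2 ratios of -1.07 and -0.83, and the histone gene Hist4h4 had 65 and 105 against 27 and 76, log2 ratios of -1.16 and -0.97. Gm19434, antisense to Hebp1, had 0 UMIs at 1 dpw and 11 against 1 at 5 dpw in macrophage-like cells.

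**Figure D4:**
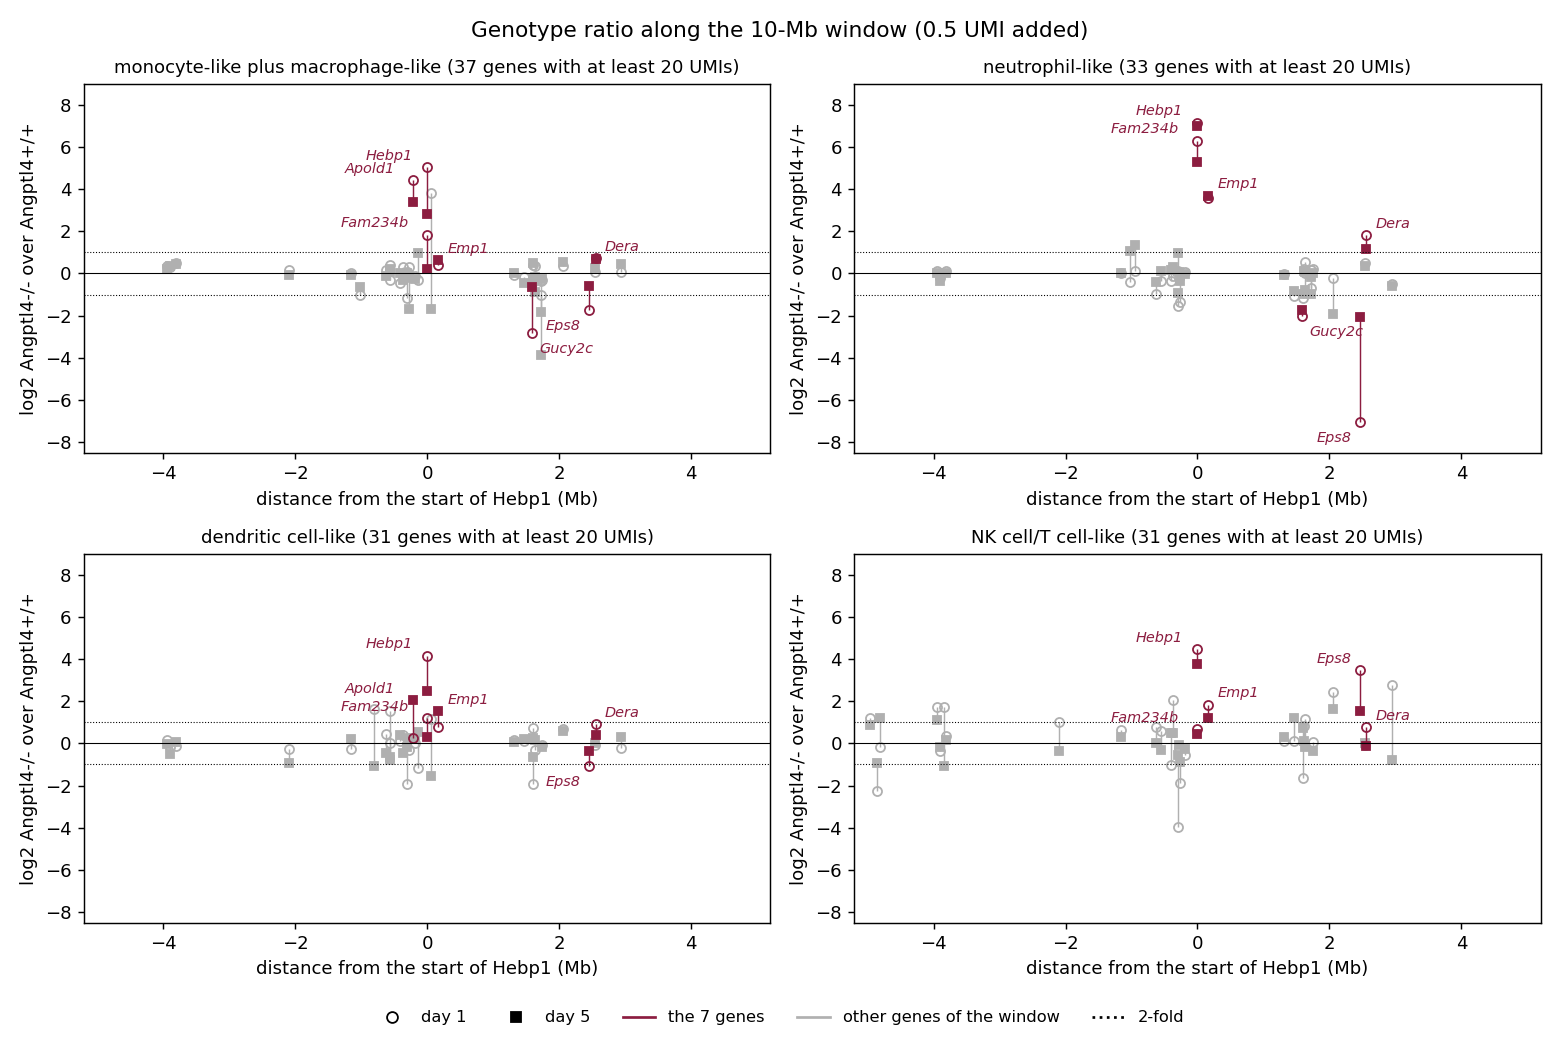
Log2 ratio of Angptl4-/- to Angptl4+/+ wounds (0.5 UMI added to each count) against distance from the start of Hebp1 in Mb, with 1 pair of points per gene for 1 dpw (open circles) and 5 dpw (filled squares), in 4 cell classes. The 7 members (dark red), which were chosen by this contrast in myeloid cells, lie between -0.216 and 2.557 Mb. Each passes a dotted 2-fold line in some class. Hebp1 does so on both days in all 4 classes, and Eps8 on at least 1 day in all 4. Emp1 and Dera, by contrast, stay between the lines in monocyte-like plus macrophage-like cells. Most other genes with at least 20 UMIs (grey) lie between the lines, which follows in myeloid classes from the choice of members.

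Along the rest of chromosome 6, in steps of 5 Mb out to 30 Mb to the left and to the chromosome's end on the right, 1 of 204 genes outside the window passed 2-fold on both days in monocyte-like plus macrophage-like cells (0.49%, against 0.953% of all genes). Taken apart, 3 of 197 passed in macrophage-like cells (1.52%, against 1.08%) and 0 of 162 in monocyte-like cells (against 0.813%). In dendritic cell-like cells 3 of 181 passed (1.66%, against 1.02%). The NK cell/T cell-like class had 1 of 184 (0.543%, against 0.883%). In neutrophil-like cells 9 of 181 did (4.97%), 3 higher and 6 lower in Angptl4-/- wounds, against 1.56% of all genes. Of these 9 genes, 4 lay in the step from 5 to 10 Mb to the left (Tulp3, 4922502D21Rik, Klrd1 and Klrc2), 1 from 10 to 15 Mb to the left (C1ra), 1 from 5 to 10 Mb to the right (Lrmp) and 3 from 10 to 15 Mb to the right (Casc1, Ppfibp1 and Mrps35).

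Genes that work with the members were looked at from a list. Of its 30 paralogues and partners, between 12 and 16 had at least 20 UMIs per class. None passed 2-fold on both days in any class, beside 0.813% to 1.56% of all genes. At such shares a list of this size would seldom hold such a gene, so nothing is read from the count. The formyl peptide receptor genes Fpr1 and Fpr2 were abundant in neutrophil-like cells and close between the genotypes. Their log2 ratios were 0.08 and 0.09 for Fpr1 and 0.14 and 0.22 for Fpr2. Emp3, a paralogue of Emp1, had -0.12 and 0.06 there, Fam234a, the paralogue of Fam234b, 0.01 and -0.02, and Abi1, a partner of Eps8 in actin regulation, -0.04 and 0.04. Guca2a, which encodes guanylin, the ligand of guanylyl cyclase C, had at most 3 UMIs per library in neutrophil-like cells. Of 16 genes of heme synthesis, breakdown and transport, 12 to 15 had enough UMIs. None passed in monocyte-like, macrophage-like, neutrophil-like or NK cell/T cell-like cells, beside 0.813% to 1.56% of all genes, and nothing is read from this either. In dendritic cell-like cells 1 of 15 passed, Hmox1, the gene of heme oxygenase-1, with 164 and 121 UMIs in Angptl4+/+ against 37 and 29 in Angptl4-/- wounds and log2 ratios of -1.74 (-2.29 to -1.21) and -1.61 (-2.25 to -1.02), where 1.02% of all genes passed. The summed level of the 8 macrophage markers was also lower in this class, at 480 and 429 CPM in Angptl4+/+ against 375 and 205 CPM in Angptl4-/- wounds. Single markers went both ways. Arg1 had 260 and 85 against 58 and 5 UMIs. At 1 dpw, however, C1qb had 11 against 23 and Apoe 51 against 67 UMIs, and at 5 dpw Mrc1 had 194 against 201. The part of these markers' RNA in the Hmox1 values was not tested.

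The genes whose levels were most like those of Hebp1 were sought outside the window, by Pearson's r of log2(CPM + 1) over 20 points, the 5 classes in 4 libraries. These points share libraries and depth, so r is a description. Of 11461 genes, Ifi202b came first with r = 0.895, followed by Gm10036 (0.852), Fuca1 (0.805), Gm10093 (0.796) and 4930544F09Rik (0.733). Ifi202b, an interferon-inducible gene of the Ifi200 family on chromosome 1, stood at 0 CPM in both Angptl4+/+ libraries of monocyte-like cells and at 69.5 and 73.6 CPM in those of Angptl4-/- wounds. Fuca1 encodes a lysosomal fucosidase. Among the members, Emp1 (0.739) and Fam234b (0.657) were most like Hebp1, then Dera (0.513) and Apold1 (0.497), while Eps8 (0.140) and Gucy2c (-0.394) were not. The 20 points include the genotype contrast that chose the members, so nothing is read from this order.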

How the data were processed

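Live CD45+ cells of 4 wound samples were sequenced in droplets. The values deposited by the authors are unnormalized UMI counts of each gene in each barcode, made with Cell Ranger 3.1.0. The submitters' processing notes also name Seurat 3.0 and mm10 (GRCm38). The number of mice behind each library and the strand setting of the counting are not given in the sources used here.

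Cells were kept from 200 detected genes upwards if mitochondrial genes gave no more than 10% of their UMIs. Libraries were joined with Seurat 5.3.0 (R 4.3.3) on 2000 variable genes and 30 dimensions, without the 17 variable genes of the window, and clustered at resolution 0.5. Clusters were named from the marker list with the highest score, at least 3 of its markers having to stand above the mean of all clusters. A cluster whose leading genes held more markers of another list was left unnamed. Doublet scores (scanpy 1.11.5) at an expected 0.8% per 1000 cells marked 229, 196, 184 and 180 cells, which were kept, since the automatic threshold had marked 1, 3, 3 and 0.

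UMIs were summed per class and library (CPM, exact Poisson intervals). Ratios carry exact conditional binomial 95% intervals, and shares of cells exact Clopper-Pearson intervals. A library without a UMI took a floor of 3 UMIs, and no ratio was given where both libraries held 3 or fewer. The design allowed no test. Positions come from GENCODE M21. The scripts were tested on simulated data, where 147 of 147 changed genes with at least 100 UMIs were called in the right direction in neutrophil-like cells, 28 of 10391 unchanged genes were called, and 487 of 500 intervals held the true ratio. The simulated UMIs were Poisson counts, the model that the intervals assume, without further variation between libraries or cells. They check the scripts and do not measure the error rates of the real libraries.

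The text names the 7 members, window genes past 2-fold on both days, the nearest neighbours of each member, lists of partners and heme genes, and the 5 genes most like Hebp1. Members, lists and rules were chosen with earlier results of these data known. Alternatives were no integration, resolution 1.0, a stricter cell filter, doublets left out, other size factors, mean CPM per cell, thinning to 1000 UMIs, window genes kept, and other UMI minimums.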

Additional observations from a re-analysis of the deposited data

Results flagged for a closer look

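Hebp1 in macrophage-like cells went up with time in Angptl4+/+ wounds (log2 ratio of 5 to 1 dpw 1.68) and down in Angptl4-/- wounds (-0.53). Eps8 in macrophage-like cells went the other way, with -0.19 in Angptl4+/+ and 0.91 in Angptl4-/- wounds. The shares of the macrophage-like clusters changed between the days, as given with Eps8. The part of that change in these day ratios was not tested. The log2 ratio of Angptl4-/- to Angptl4+/+ for Eps8 was positive in NK cell/T cell-like cells, 4.03 at 1 dpw and 1.58 at 5 dpw, and negative elsewhere. At 1 dpw it was -7.35 in neutrophil-like, -3.21 in monocyte-like, -1.52 in macrophage-like and -1.10 in dendritic cell-like cells. At 5 dpw these were -2.07, -3.68, -0.42 and -0.35. Each contrast has 1 library a side and opposite directions are all that set these values apart, so the differences themselves were not tested. The genotype ratios of Eps8, and the day ratios where set between the genotypes, hold the contrast that chose the genes. The positive Eps8 ratio rests on few NK cell/T cell-like cells, 1 and 7 in Angptl4+/+ against 4 and 10 in Angptl4-/- wounds.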

How the results depend on the processing

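No genotype ratio past 2-fold changed direction under any alternative that could give a value (375 of 375). Sizes were less stable than directions. After thinning 34 of 57 genotype ratios stayed within their interval, and with mean CPM per cell 64 of 74 did. Under the alternatives of clustering, cell filter, doublets and size factors it was 69 to 74 of 74. At resolution 1.0 a cluster of 1006 cells, which scored best as macrophage-like, stayed unnamed and so was outside every class. The count of members past 2-fold on both days stayed at 2 in macrophage-like cells under all alternatives and ranged from 5 to 6 in neutrophil-like, 2 to 4 in monocyte-like and 2 to 3 in monocyte-like plus macrophage-like cells. In NK cell/T cell-like cells it was 2 in place of 3, Hebp1 and Emp1 without Eps8, with no integration, and 1, Emp1, with mean CPM per cell, with cells thinned to 1000 UMIs, with a minimum of 100 UMIs, and with cells of 2 or more macrophage markers left out, an alternative chosen after seeing the data. In dendritic cell-like cells it was 2 in place of 1 after thinning. For the other window genes, the 1 found when monocyte-like and macrophage-like cells were joined was 0 with the stricter cell filter, doublets left out, mean CPM per cell, thinning and a minimum of 100 UMIs, and at resolution 1.0 it was Lockd in place of Erp27. The 2 in NK cell/T cell-like cells (Klra2 and Ptpro) became 5 with the stricter filter, 3 with doublets left out (Klra2 lost) and with mean CPM per cell, and 0 with thinning and with a minimum of 100 UMIs, and they were Ptpro and Mgst1 with no integration and Klra2 and Plbd1 with cells of macrophage markers left out. The 0 in neutrophil-like cells became 2 with mean CPM per cell and 1 with thinning and with no minimum, the 0 in dendritic cell-like cells 1 without integration and with mean CPM per cell, and the 0 in macrophage-like cells 1 at resolution 1.0. The minimum of UMIs changes how many genes are counted, and for the others the cause was not tested. No paired analysis was possible because each genotype and day had 1 library. Depth limits Apold1, Gucy2c and Fam234b most, with at most 136 UMIs per class and library.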
